A study of Mus musculus with 15 samples.

Results

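Matrix metalloproteinases (MMPs), their tissue inhibitors (TIMPs), the ADAM and ADAMTS proteases and the lysyl oxidases were followed in mouse ventricles over a time course of CELF2 induction. The genes were taken by symbol: every gene of the expression table whose symbol starts with Mmp, Timp or Adam followed by a digit, with Adamts, or is Lox or Loxl1 to Loxl4. This gave 71 of the 16199 genes of the table: 20 Mmp, 4 Timp, 21 Adam, 18 Adamts, 3 Adamtsl and 5 lysyl oxidase genes. Of these, 32 had a mean of at least 1 RPKM (the reads on a gene's constitutive coding sequence, scaled by its length and by the library's mapped reads) over all hearts and were tested among 10557 such genes, and the other 39 were below it.

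MMPs are secreted or membrane-bound enzymes that cleave collagens and other matrix proteins, and TIMPs bind them and block their active site. ADAMs are membrane proteases that release growth factors, cytokines and receptors from the cell surface, whereas ADAMTS proteases are secreted and act on proteoglycans, procollagens and microfibril proteins. Lysyl oxidases form the cross-links of collagen and elastin. In the heart these enzymes are known for their part in the turnover of the interstitial matrix, much of which is made by fibroblasts.

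Poly(A)+ RNA from 15 ventricles was sequenced, 3 hearts in each of 5 groups and 1 animal per library. The induced mice were MHCrtTA/TRECUGBP2 animals, in which the Myh6 promoter drives the doxycycline-dependent activator in cardiomyocytes and the activator switches on a human CELF2 transgene (CELF2 is an RNA-binding protein that acts on splicing and mRNA decay). They were killed after 12 h, 24 h, 72 h or 7 d of doxycycline food, and the control mice carried MHCrtTA alone and had doxycycline for 72 h. All animals were FVB, 14 to 16 weeks old, and received 2 g/kg doxycycline by their labels, with atria and a piece of the apex cut away. The labels of the induced hearts also name a Celf1 cassette, which is at odds with their genotype and with the genotype described for the study. Values of a group are given below in the order of hearts 1 to 3, which is only the order of deposition.

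Celf2 (Cugbp2 in the table, chr2:6460751-7002348 in mm9, minus strand) was at 8.54, 11.3 and 9.64 RPKM in the controls. The ratio of group means to control was 12.5 after 12 h, 15.3 after 24 h, 23.5 after 72 h and 33.0 after 7 d, and no induced heart overlapped the controls (exact permutation test, two-sided, p = 0.1 at each time, the smallest that 3 against 3 hearts allow). The transgene and the mouse gene could not be told apart in these values.

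The libraries differed in other ways that bear on the comparisons. A code in the sample titles, whose meaning was not given in the sources used here, took 3 values (here A, B and C): control, 12 h and 24 h hearts were 1 A and 2 B, the 72 h hearts 2 A and 1 C, and the 7 d hearts 1 A and 2 C. mRNA of Y-linked genes was present in 1 control heart, 0 hearts at 12 h, 2 at 24 h and all at 72 h and 7 d. Times of day of harvest were not given, so time of day and time of induction cannot be told apart. Cardiomyocyte markers summed to between 24500 and 33300 RPKM over all hearts, against 416 to 522 for 6 fibroblast markers and 23.6 to 311 for 3 atrial markers. The fibroblast sum was 445 to 481 in controls and 416 to 442 at 7 d, with 0 of its 6 genes passing the test in any comparison, and its part in the results was not tested. Of the 5 cardiomyocyte markers, 1 was higher and 2 were lower at 7 d than in controls (Actc1, Myh6 and Pln passed), and 1 was higher and 4 were lower than at 12 h; their part in the 7 d results was not tested either. Summed neutrophil markers were 0.43 to 1.56 in controls and 1.44 to 3.02 at 12 h, and summed adipocyte markers 6.52 to 10.2 in controls and 2.76 to 4.01 at 7 d. In bulk tissue, fewer cells of a type and less RNA per cell cannot be told apart.

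The highest levels per length belonged to inhibitors and to a few proteases. Averaged over the 15 hearts, Timp2 stood at 53.0 RPKM and Timp3 at 43.4, followed by Adamtsl5 (34.4), Mmp15 (30.4), Mmp2 (30.0) and Adam15 (26.2). A middle group between 4 and 16 RPKM held Loxl1 (15.2), Adam17 (15.0), Adamtsl4 (14.6), Adam9 (13.8), Adam10 (10.2), Adamts1 (9.25), Adamts10 (7.48), Adamts7 (7.13), Timp4 (6.89), Adam11 (6.66), Adamts2 (6.23), Mmp14 (5.92), Adamtsl2 (5.55), Mmp23 (5.24), Loxl2 (4.90) and Adamts5 (4.72). The lowest of the tested genes were Adam19 (3.89), Mmp11 (2.98), Adam1a (2.26), Timp1 (1.61), Loxl3 (1.57), Mmp19 (1.28), Adamts3 (1.10), Adam23 (1.07), Mmp28 (1.03) and Adam1b (1.02). Neighbours in this order overlapped between hearts, as Mmp15 (17.3 to 52.7 RPKM) and Mmp2 (22.0 to 36.7) did.

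**Figure D1:**
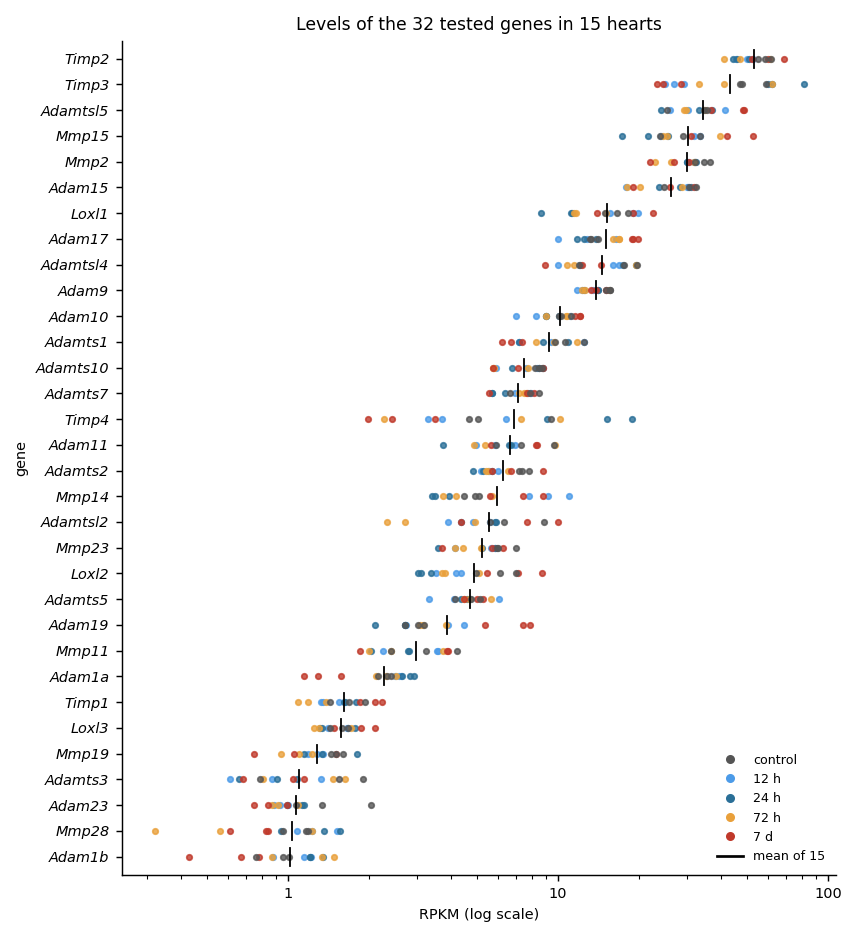
RPKM (log axis) of the 32 tested genes, ordered by their mean; each point is a heart, coloured by group, and the bar is the mean of 15 hearts. Timp2 and Timp3 lead, and Timp4 spreads widest among genes above 5 RPKM, from 1.97 to 18.8.

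The 39 genes under the filter included the collagenases, matrilysins and stromelysins best known from inflamed tissue. Mean levels ran from 0.000667 to 0.706 RPKM for 12 Adam genes, 0.002 to 0.876 for 12 Adamts genes, 0.002 to 0.772 for 13 Mmp genes and 0.398 to 0.477 for Lox and Loxl4. In 25 of the 39, no heart reached 0.5 RPKM, and in 6 at least 1 heart reached 1 RPKM. Mmp9 (gelatinase B, a neutrophil and macrophage enzyme) lay between 0.20 and 0.76 RPKM, and Mmp8, the neutrophil collagenase, did not exceed 0.06.

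In limma's test on log2(RPKM + 0.5), with Benjamini-Hochberg adjustment over all tested genes, few of the 32 genes passed an adjusted p of 0.05. At 12 h 1 was higher than in controls and 0 lower, where 0.104% of all tested genes were called higher and 0.284% lower. At 24 h and at 72 h 0 genes passed, and 7 and 9 of the 32 had an unadjusted p under 0.05, as did 972 (9.21%) and 1442 (13.7%) of the 10557 tested genes. The background was 0.0379% higher and 0.0568% lower at 24 h, and 0.237% higher and 0.36% lower at 72 h. After 7 d 2 genes were higher and 3 lower, against 5.83% and 4.16% of all genes. Compared with 12 h, 7 d hearts had 5 genes higher and 1 lower (background 11.8% and 3.88%), and compared with 72 h, 2 higher and 2 lower (1.74% and 0.777%). The contrast of 24 h with 12 h, added after the values had been seen, called 1 gene higher and 1 lower (0.341% and 0.218%). With 32 genes tested, 1 call is already a larger share than most of these backgrounds, and at 7 d the calls higher than controls or 12 h were at a share near the background. Against controls, the 32 genes had a median log2 change of -0.19 (12 h), -0.17 (24 h), -0.21 (72 h) and -0.10 (7 d), where the medians over all tested genes were -0.10, -0.10, -0.08 and 0.03. The 4 comparisons with controls share the same 3 control hearts. Hearts of the induced group and controls did not overlap for 11, 12, 8 and 13 of the 32 genes at 12 h, 24 h, 72 h and 7 d. Over all tested genes these shares were 16.5%, 17.3%, 18.1% and 31.7%. Between 7 d and 12 h this held for 8 of the 32 (30.4% of all tested genes). For 7 d and 72 h it was 10 (20.5%), and for 24 h and 12 h 9 (8.8%). Non-overlap is given below as a description and not as a test.

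**Figure D2:**
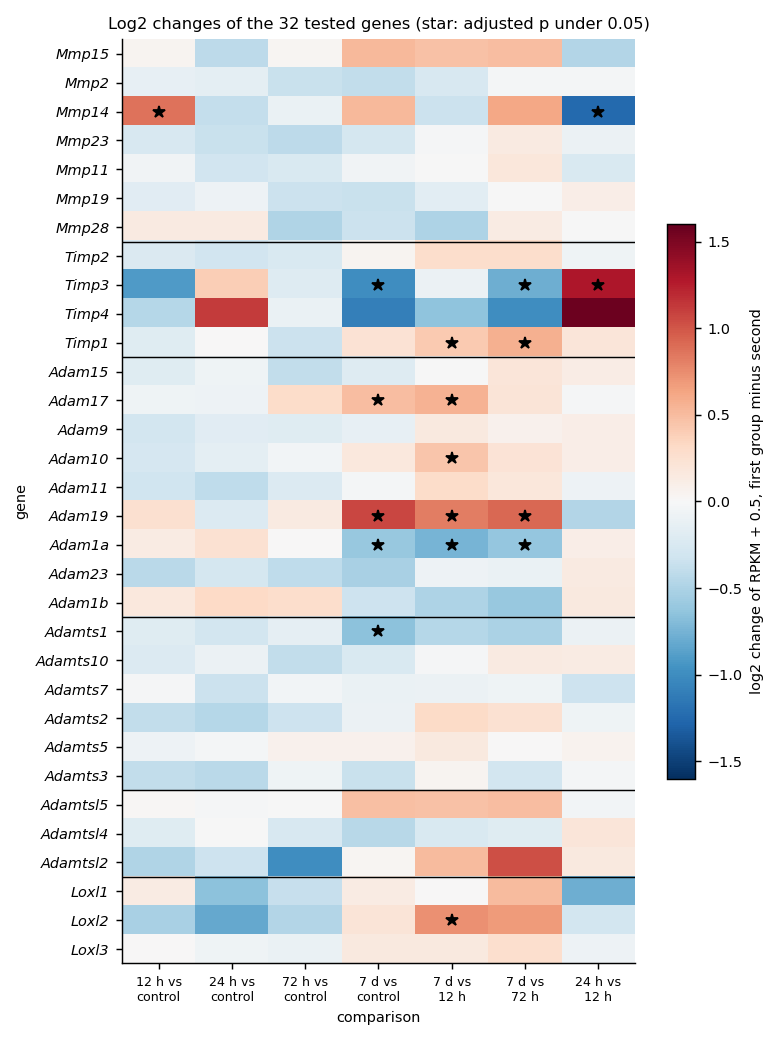
Log2 change (colour, first group minus second, on RPKM + 0.5) of the 32 tested genes (rows, by family and level) in 7 comparisons (columns); stars mark adjusted p under 0.05. The starred cells are 1 at 12 h, 5 at 7 d against controls, 6 at 7 d against 12 h, 4 at 7 d against 72 h and 2 at 24 h against 12 h.

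Among the TIMPs, Timp3 fell at 7 d, and its level swung between 12 h and 24 h. Timp3, an inhibitor that stays bound to the matrix and also blocks several ADAM and ADAMTS proteases, lies at chr10:85763117-85812251 on the plus strand, inside Syn3 on the opposite strand (Syn3 itself averaged 0.105 RPKM). Its level was 48.0, 47.1 and 58.9 RPKM in the controls, 25.0, 29.4 and 27.0 at 12 h, 59.7, 81.4 and 62.1 at 24 h, 41.2, 33.2 and 62.3 at 72 h, and 24.5, 23.3 and 28.5 at 7 d. All 12 h and 7 d hearts lay below every other heart, and every 24 h heart lay above every control. The 7 d mean was 25.5 ± 2.72 RPKM (SD, n = 3) against 51.3 ± 6.55 in controls, a log2 change of -0.99 ± 0.19 (SE, adjusted p = 0.00441). At 12 h the change was -0.90 ± 0.19 with an adjusted p of 0.0637, which did not pass, although those hearts did not overlap the controls either. From 12 h to 24 h Timp3 rose by a log2 change of 1.29 ± 0.19 (adjusted p = 0.00487), in a contrast added after the values had been seen. That call was lost with Y-linked mRNA as covariate, which was present in 0 hearts at 12 h and 2 at 24 h. From 72 h to 7 d Timp3 fell, with a log2 change of -0.78 ± 0.19 (adjusted p = 0.0438). This call was kept in 11 of 18 alternative settings. It was lost without any 1 of the 7 d hearts, without 72 h heart 1 or 3, with no filter and with only the compared groups. Within title code A the 7 d heart was at 0.512 of the control heart, and among hearts with Y-linked mRNA the 7 d hearts were at 0.433 of the control heart. The 24 h to 12 h ratio was 2.39 within code A and 2.54 within code B. Hearts of the compared groups did not overlap for Timp3, so the directions of these ratios were fixed beforehand.

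Timp4, the TIMP best known from heart muscle, had a wider spread and passed no test in the main fit. It was 4.68, 5.06 and 9.40 RPKM in controls, 3.72, 6.42 and 3.31 at 12 h, 9.11, 18.8 and 15.2 at 24 h, 7.32, 2.26 and 10.2 at 72 h, and 2.43, 1.97 and 3.50 at 7 d. The 7 d hearts lay below all controls and the 24 h hearts above all 12 h hearts. Unlike those of Timp3, the 12 h and 24 h hearts overlapped the controls. The log2 change was -1.10 ± 0.43 at 7 d against controls (adjusted p = 0.129) and 1.57 ± 0.43 at 24 h against 12 h (adjusted p = 0.194).

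Timp1, an inducible inhibitor of most secreted MMPs on the X chromosome, was 1.43, 1.93 and 1.68 RPKM in controls, 1.35, 1.32 and 1.55 at 12 h, 1.79, 1.61 and 1.63 at 24 h, 1.19, 1.09 and 1.38 at 72 h, and 2.09, 1.85 and 2.22 at 7 d. The 7 d hearts stood above all 12 h, 24 h and 72 h hearts and overlapped the controls. Timp1 was higher at 7 d than at 12 h (log2 0.42 ± 0.13, adjusted p = 0.0361) and at 72 h (0.57 ± 0.13, adjusted p = 0.0291), and its change against controls was 0.23 ± 0.13 (adjusted p = 0.290). Against 12 h the call was lost when hearts were rescaled or the title code or Y-linked mRNA was a covariate, and Y-linked mRNA separated those groups fully. Against 72 h the call was kept in 10 of 17 alternative settings. It was lost without any 1 of the 7 d hearts, without 72 h heart 1 or 2, under quantile normalization and with only the compared groups.

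Timp2, which both inhibits MMPs and takes part in the activation of pro-MMP2 by Mmp14, passed no test in the main fit. It was 54.9, 61.4 and 58.5 RPKM in controls, 49.98, 52.8 and 45.5 at 12 h, 44.3, 51.0 and 45.9 at 24 h, 47.3, 41.2 and 61.1 at 72 h, and 52.2, 60.2 and 68.9 at 7 d. Its log2 changes against controls were -0.24, -0.31, -0.24 and 0.04 in order of time, and the 12 h and 24 h hearts did not overlap the controls.

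**Figure D3:**
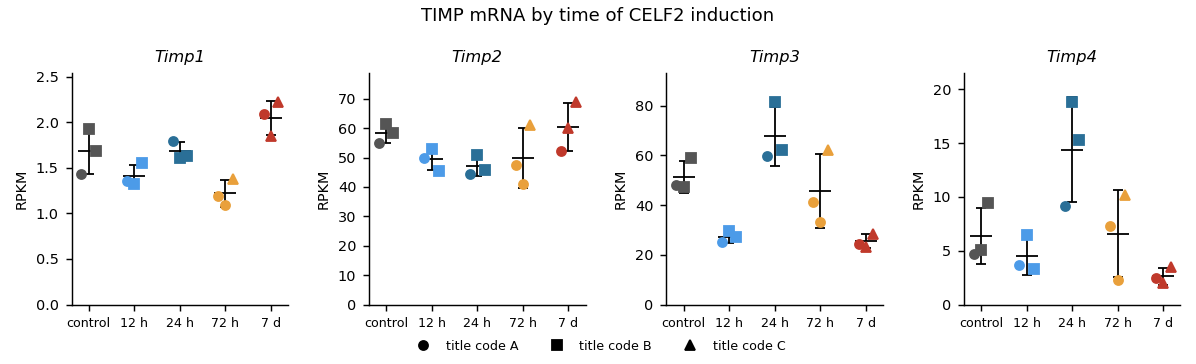
RPKM of the 4 Timp genes by group; points are hearts, shaped by title code, and bars show mean and SD of each group (n = 3). Timp3 is at 23.3 to 29.4 RPKM in the 12 h and 7 d hearts and at 33.2 to 81.4 in the others.

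Of the MMPs, Mmp14 rose at 12 h and was back near the control level at 24 h. Mmp14 (chr14:55050441-55060095, plus strand) encodes a membrane-type collagenase that activates pro-MMP2. Its level was 4.50, 4.94 and 5.11 RPKM in controls, 7.80, 10.96 and 9.21 at 12 h, 3.40, 3.51 and 3.93 at 24 h, 4.18, 3.74 and 5.67 at 72 h, and 5.58, 7.39 and 8.82 at 7 d. Every 12 h and 7 d heart was above every control, and every 24 h heart below. The 12 h mean of 9.32 ± 1.58 RPKM was 1.92 times that of controls (4.85 ± 0.315), with a log2 change of 0.87 ± 0.17 and an adjusted p of 0.0498. That call sat at the threshold and was kept in 8 of 18 alternative settings. It was lost without any 1 of the 3 control hearts, without heart 2 or 3 of the 12 h group, and with a pseudocount of 0.1. Y-linked mRNA as covariate, only the compared groups, no filter and a minimum of 5 RPKM also lost it. From 12 h to 24 h Mmp14 fell, with a log2 change of -1.25 ± 0.17 (adjusted p = 0.00346), at a ratio of 0.436 within code A and 0.369 within code B. That contrast was added after the values had been seen. At 7 d the change against controls was 0.52 ± 0.17 (adjusted p = 0.0762). It was called under each of the 3 rescalings (adjusted p = 0.039 to 0.0487) and not with title code as covariate (adjusted p = 0.134).

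Mmp15 is another membrane-type MMP, and Mmp2 is the gelatinase that cleaves denatured collagen and basement membrane collagen. They were the most abundant MMPs and passed no test in the main fit. Mmp15 was 23.8, 29.1 and 33.6 RPKM in controls, 24.1, 33.5 and 31.9 at 12 h, 17.3, 25.4 and 21.5 at 24 h, 25.3, 24.4 and 39.9 at 72 h, and 31.1, 42.2 and 52.7 at 7 d. Its 7 d hearts overlapped the controls, with a log2 change of 0.52 ± 0.23 (adjusted p = 0.179). Mmp2 was 36.7, 34.6 and 32.3 RPKM in controls, 32.1, 31.9 and 30.3 at 12 h, 30.1, 32.4 and 30.01 at 24 h, 26.1, 22.8 and 32.02 at 72 h, and 22.0, 26.8 and 30.6 at 7 d. All 7 d hearts were below all controls, at a log2 change of -0.39 ± 0.13 (adjusted p = 0.0751). Under each of the 3 rescalings Mmp2 was called lower there (adjusted p = 0.0116 to 0.0183). With title code as covariate it was called lower at 7 d (log2 -0.67, adjusted p = 0.00188) and 72 h (adjusted p = 0.0163). That covariate took the genes called lower among all tested genes from 439 to 796 at 7 d. At 72 h they went from 38 to 363. With Y-linked mRNA as covariate Mmp2 was not called. The gelatinase and collagenase list (Mmp2, Mmp9, Mmp1a, Mmp1b, Mmp8 and Mmp13) had 4 of 6 genes in the table and only Mmp2 above the filter. Among the other tested MMPs, the log2 change at 7 d was -0.28 for Mmp23, -0.06 for Mmp11, -0.36 for Mmp19 and -0.35 for Mmp28, the smallest adjusted p being 0.225.

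**Figure D4:**
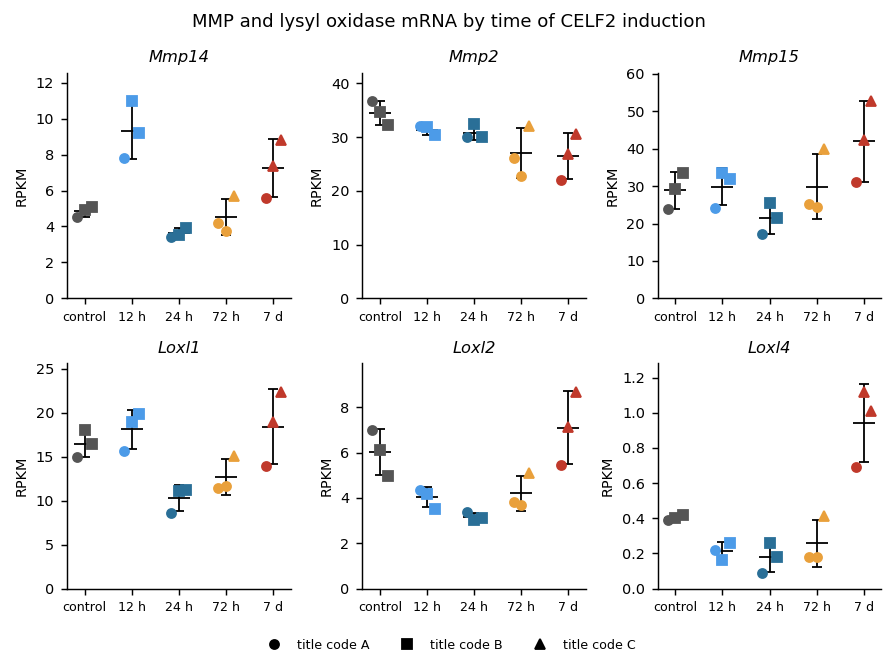
RPKM of 3 Mmp and 3 lysyl oxidase genes by group; points are hearts, shaped by title code, bars show mean and SD of each group (n = 3), and each axis starts at 0. Mmp14 is at 7.80 to 10.96 RPKM at 12 h and at 3.40 to 3.93 at 24 h; Loxl4 is under the filter of 1 RPKM.

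Of the 5 genes called at 7 d against controls, 3 were Adam genes, a family with 9 of the 32 tested genes. Among all tested genes, 5.83% were called higher and 4.16% lower in that comparison. With so few calls, the count is not read as a result about the family. Adam19 and Adam17 were higher and Adam1a lower. Adam19, a sheddase of neuregulins needed for forming heart valves and septum, lies at chr11:45868004-45960845 on the plus strand. It was 3.19, 2.71 and 3.04 RPKM in controls, 4.48, 3.91 and 2.73 at 12 h, 2.09, 2.70 and 2.72 at 24 h, 3.17, 3.85 and 3.07 at 72 h, and 5.38, 7.86 and 7.39 at 7 d. The 7 d hearts exceeded all the other hearts. Their mean of 6.88 ± 1.32 RPKM was 2.31 times that of controls (2.98 ± 0.246), with a log2 change of 1.07 ± 0.18 (adjusted p = 0.00159), and the log2 difference was 0.82 from 12 h (adjusted p = 0.00695) and 0.92 from 72 h (adjusted p = 0.0155). Against controls the ratio was 1.69 within code A and 2.26 among hearts with Y-linked mRNA. The 7 d to 72 h ratio was 1.53 within code A and 2.48 within code C. The code A heart was the lowest of the 7 d hearts, and the call against controls was lost with title code and Y-linked mRNA together as covariates. The call against 12 h was lost with either of them and with only the compared groups. The call against 72 h was kept in 13 of 17 alternative settings.

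Adam17, which sheds TNF, TGF-alpha and heparin-binding EGF, lies at chr12:21329370-21379493 on the minus strand. It was 14.0, 13.2 and 13.1 RPKM in controls, 16.5, 12.8 and 10.01 at 12 h, 13.8, 12.5 and 11.8 at 24 h, 16.8, 16.8 and 16.0 at 72 h, and 19.9, 19.0 and 18.8 at 7 d. All 7 d hearts were above all the others, and the 72 h hearts above all controls. The mean rose from 13.5 ± 0.492 to 19.2 ± 0.580 RPKM at 7 d, a log2 change of 0.50 ± 0.14 (adjusted p = 0.0326), and the difference from 12 h was 0.56 ± 0.14 (adjusted p = 0.0136). The call against controls was lost without any 1 of the 6 hearts of that comparison. The call against 12 h was lost under the 3 rescalings, with title code or Y-linked mRNA as covariate and with only the compared groups.

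Adam10, the sheddase of Notch receptors and N-cadherin, was 11.1, 10.1 and 10.3 RPKM in controls, 11.1, 8.29 and 7.01 at 12 h, 10.1, 9.05 and 9.01 at 24 h, 10.8, 10.8 and 9.02 at 72 h, and 12.1, 11.5 and 12.1 at 7 d. It was higher at 7 d than at 12 h (log2 0.44 ± 0.14, adjusted p = 0.0450), where within code A the ratio was 1.09. This call was kept in 5 of 18 alternative settings and lost under each of the 3 rescalings of the hearts (adjusted p = 0.178 to 0.288), with each covariate and without heart 2 or 3 of the 12 h group or any heart of the 7 d group. Against controls the change was 0.17 ± 0.14 (adjusted p = 0.496). Among the 12 h hearts, that of code A had the highest level of Adam10, Adam17 and Adam19.

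Adam1a, a member of the fertilin family known from testis, lies at chr5:121968613-121971704 on the minus strand, and its coding sequence overlaps an exon of Mapkapk5 on the same strand. It was 2.32, 2.41 and 2.15 RPKM in controls, 2.61, 2.49 and 2.58 at 12 h, 2.83, 2.93 and 2.65 at 24 h, 2.50, 2.31 and 2.12 at 72 h, and 1.57, 1.29 and 1.15 at 7 d. The 7 d hearts were below all the others. Its log2 change at 7 d was -0.61 ± 0.11 against controls (adjusted p = 0.00393), -0.74 against 12 h (adjusted p = 0.000832) and -0.62 against 72 h (adjusted p = 0.0138). The call of Adam1a against 72 h was kept in 12 of 17 alternative settings. Mapkapk5, a protein kinase gene at a mean of 34.1 RPKM and looked up for this overlap, moved with Adam1a. Its log2 change was -0.41 at 7 d against controls (adjusted p = 0.00557) and -0.50 against 12 h (adjusted p = 0.0013). At 7 d against 72 h Mapkapk5 was at -0.32 (adjusted p = 0.0559), which did not pass. How the reads of the shared exon were assigned was not given in the sources used here, and the part of Mapkapk5 in the values of Adam1a was not tested. The neighbouring Adam1b had a log2 change of -0.33 at 7 d against controls (adjusted p = 0.251).

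Adam15 and Adam9, 2 widely expressed ADAMs with an active protease domain, passed no test in the main fit. Adam15 was 24.7, 30.5 and 32.4 RPKM in controls, 17.8, 30.2 and 29.96 at 12 h, 23.8, 28.3 and 31.1 at 24 h, 18.1, 20.1 and 28.8 at 72 h, and 19.0, 25.9 and 31.96 at 7 d. In every group the code A hearts were the lowest for this gene. Adam9 was 15.1, 15.6 and 15.6 RPKM in controls, 13.5, 12.2 and 11.7 at 12 h, 14.0, 14.0 and 12.5 at 24 h, 12.6, 12.2 and 15.4 at 72 h, and 13.2, 13.8 and 15.0 at 7 d. With title code as a covariate Adam9 was called lower than in controls at 12 h (log2 -0.29, adjusted p = 0.0415). The genes called lower among all tested genes then went from 30 to 655. Adam11 and Adam23, which lack protease activity, had log2 changes of -0.03 and -0.51 at 7 d (adjusted p = 0.968 and 0.0551). Adam23 was called lower under each of the 3 rescalings (adjusted p = 0.0243 to 0.037).

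**Figure D5:**
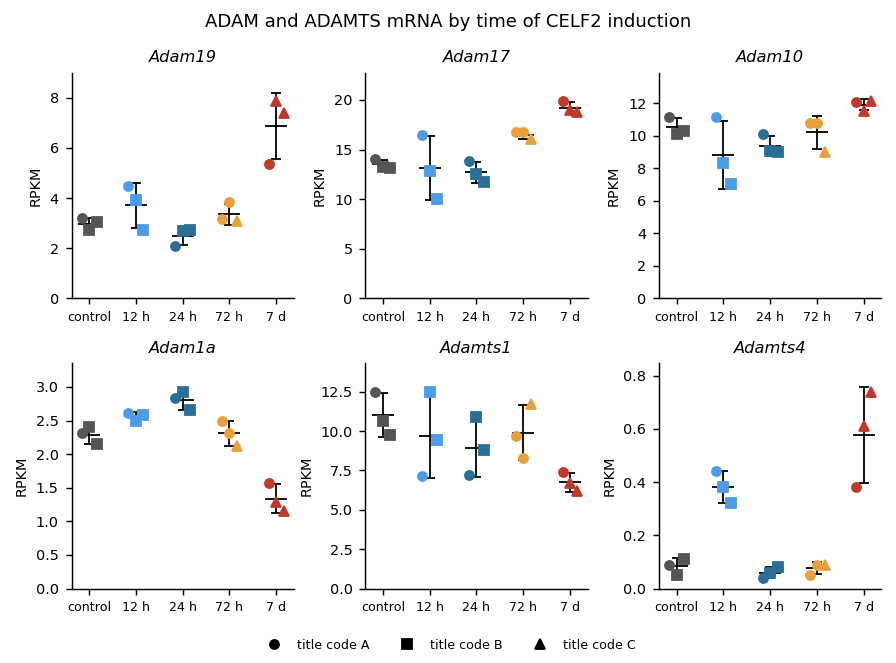
RPKM of 4 Adam and 2 Adamts genes by group; points are hearts, shaped by title code, bars show mean and SD of each group (n = 3), and each axis starts at 0. Adam19 and Adam17 are highest and Adam1a lowest in the 3 hearts at 7 d; Adamts4 is under the filter of 1 RPKM.

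CELF proteins bind GU-rich stretches of RNA, among them elements in 3′ UTRs, so the longest annotated 3′ UTR of each gene (mm9, GENCODE) was searched on the transcript strand for TGTTTGTTTGT, a GU-rich element, and for TGTGTGTGTGT, a GU repeat; the motifs share end letters, and a site of one cannot lie inside the other. In the first 1000 bases, where 2.21% of 9194 3′ UTRs hold the former and 4.88% the latter, 1 of 22 tested genes with a UTR of that length had each. With 22 genes, 1 is near these shares. The genes were Adam17 for the former and Adam19 for the latter, each shown with 30 bases and the motif in capitals because both are described above:
Adam17 (chr12:21330737-21330766, minus strand, within its 3′ UTR): agacatactTGTTTGTTTGTtttgtttttg
Adam19 (chr11:45958260-45958289, plus strand, the start of a repeat of 51 bases in its 3′ UTR): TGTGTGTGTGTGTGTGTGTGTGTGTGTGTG
Neither motif was found in the 3′ UTRs of Timp3, Adam1a, Adamts1 or Mmp14. Over whole 3′ UTRs, 2 of 32 tested genes held the GU-rich element (Adam17 and Adamts5) and 3 the repeat (Adam19, Adamts2 and Loxl3). Adamts5, Adamts2 and Loxl3 were not called at 7 d, at log2 changes of 0.07, -0.09 and 0.16 against controls. A match is a description of the letters and not a measured binding site.

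The AP-1 motif TGANTCA, known from the promoters of inducible MMPs, was searched in RefSeq promoter windows (GRCm38.p6, 250 bases before to 50 after each start; the motif reads alike on both strands). It was in 7.81% of 32851 windows and in 2 of 25 windows of the 22 tested genes that had one, Adam19 and Adam1b. Of all 48 windows of these families, 7 held it, the others being 5 Mmp genes of the chromosome 9 cluster. The Adam19 stretch is shown beside 2 of these, with the motif in capitals, since their mRNA levels lay apart:
Adam19 (GRCm38 chr11:46055842-46055871, plus strand): tgtccttcaccTGAGTCAgcgatgctcccg
Mmp3 (GRCm38 chr9:7445765-7445794, plus strand): ggaagcaattaTGAGTCAgttttcgggtga
Mmp13 (GRCm38 chr9:7272468-7272497, plus strand): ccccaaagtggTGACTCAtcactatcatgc
Mmp3 (stromelysin) stayed between 0.04 and 0.30 RPKM and Mmp13 (a collagenase) between 0.06 and 0.41 in all 15 hearts, where Adam19 ranged from 2.09 to 7.86.

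Of the ADAMTS proteases, Adamts1 fell at 7 d. Adamts1 (chr16:85794072-85803358, minus strand) cleaves versican and aggrecan. It was 12.5, 10.6 and 9.76 RPKM in controls, 7.16, 12.5 and 9.42 at 12 h, 7.18, 10.9 and 8.77 at 24 h, 9.66, 8.29 and 11.7 at 72 h, and 7.37, 6.71 and 6.18 at 7 d. The 7 d hearts were below all controls and overlapped the 12 h and 24 h hearts. The mean fell from 11.0 ± 1.40 to 6.75 ± 0.596 RPKM, a log2 change of -0.66 ± 0.19 (adjusted p = 0.0444), and the call was lost without any 1 of the 6 hearts.

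Adamts10, linked to fibrillin microfibrils, was 8.23, 8.52 and 8.76 RPKM in controls, 5.88, 8.35 and 7.61 at 12 h, 6.74, 8.77 and 8.47 at 24 h, 5.72, 5.81 and 7.74 at 72 h, and 5.72, 7.10 and 8.79 at 7 d. Adamts7, which cleaves cartilage oligomeric matrix protein, was 6.63, 8.51 and 7.89 RPKM in controls, 6.92, 7.93 and 7.74 at 12 h, 5.67, 6.34 and 5.68 at 24 h, 7.45, 7.18 and 7.59 at 72 h, and 5.54, 7.67 and 8.15 at 7 d. Neither passed a test in the main fit, and their 7 d hearts overlapped the controls. The procollagen N-proteinases Adamts2 and Adamts3, which trim fibrillar procollagens, had log2 changes of -0.09 and -0.36 at 7 d (adjusted p = 0.753 and 0.444), and the aggrecanase Adamts5 one of 0.07 (adjusted p = 0.850). Adamts2 lay below the controls without overlap at 12 h (log2 -0.39), 24 h (-0.46) and 72 h (-0.33), with adjusted p from 0.271 to 0.303. Of all tested genes, 16.5%, 17.3% and 18.1% did not overlap the same controls at these times. With title code as a covariate Adamts2 was called lower at 12 h (adjusted p = 0.0411) and 24 h (0.0348). The genes called lower among all tested genes then went from 30 to 655 at 12 h and from 6 to 268 at 24 h.

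The ADAMTS-like genes encode proteins without a protease domain. Adamtsl5 was 25.3, 34.6 and 35.8 RPKM in controls, 25.9, 30.4 and 41.5 at 12 h, 24.1, 37.2 and 33.2 at 24 h, 29.9, 29.2 and 35.1 at 72 h, and 36.8, 48.4 and 48.8 at 7 d. Its 7 d hearts lay just above the controls (log2 0.48 ± 0.20, adjusted p = 0.145). With title code as a covariate Adamtsl5 was called higher (log2 0.59, adjusted p = 0.0116). Of all tested genes, 540 were then called higher, and 616 without the covariate. Adamtsl2, a microfibril-associated protein, had a log2 change of -0.99 at 72 h (adjusted p = 0.148) and 0.03 at 7 d, and Adamtsl4 one of -0.44 at 7 d (adjusted p = 0.362).

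Among the lysyl oxidases, Loxl1 and Loxl2 had their lowest means at 24 h, and Loxl2 alone passed a test, at 7 d against 12 h. Loxl2 (chr14:70008978-70095640, plus strand), known for cross-linking basement membrane collagen, was 6.99, 6.10 and 4.96 RPKM in controls, 4.37, 4.18 and 3.53 at 12 h, 3.38, 3.03 and 3.11 at 24 h, 3.82, 3.71 and 5.10 at 72 h, and 5.47, 7.12 and 8.69 at 7 d. All 12 h and 24 h hearts were below all controls, and all 7 d hearts above all 12 h hearts. Between 12 h and 7 d the log2 change was 0.73 ± 0.17 (adjusted p = 0.0111), with a ratio of 1.25 within code A. Against controls the log2 changes were -0.52 (12 h), -0.82 (24 h), -0.47 (72 h) and 0.21 (7 d), with adjusted p of 0.243, 0.113, 0.242 and 0.503. With title code as a covariate, Loxl2 was called lower than in controls at 12 h (adjusted p = 0.0154), 24 h (0.00381) and 72 h (0.0118). Its call at 7 d against 12 h was lost (log2 0.30, adjusted p = 0.186). Over all tested genes, this covariate took the genes called lower than in controls from 30 to 655 at 12 h. At 24 h they went from 6 to 268 and at 72 h from 38 to 363.

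Loxl1, which acts on elastin, was 15.0, 18.1 and 16.5 RPKM in controls, 15.6, 19.0 and 19.8 at 12 h, 8.64, 11.1 and 11.2 at 24 h, 11.5, 11.7 and 15.1 at 72 h, and 14.0, 19.0 and 22.4 at 7 d. The 24 h hearts were below all control and all 12 h hearts, with log2 changes of -0.66 ± 0.17 (adjusted p = 0.212) and -0.78 ± 0.17 (adjusted p = 0.0581). Both differences passed with title code as a covariate (adjusted p = 0.00351 and 0.000187). Among all tested genes, those called lower at 24 h then went from 6 to 268 against controls and from 23 to 108 against 12 h. Loxl3 was 1.43, 1.59 and 1.67 RPKM in controls, 1.40, 1.67 and 1.65 at 12 h, 1.33, 1.77 and 1.31 at 24 h, 1.25, 1.30 and 1.71 at 72 h, and 1.48, 1.87 and 2.09 at 7 d, and its groups overlapped.

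Other genes of the pathway were read from 4 lists. Of 8 tested protease activators and inhibitors, 1 was higher at 7 d than in controls: Plau, the urokinase that activates plasminogen, at 3.55 ± 0.420 against 2.28 ± 0.215 RPKM (log2 0.54, adjusted p = 0.0315). Of 12 tested genes of collagen processing and cross-linking, 1 was higher and 1 lower. Lepre1, a collagen prolyl hydroxylase, was at 9.67 ± 0.743 against 6.97 ± 0.733 RPKM (log2 0.45, adjusted p = 0.0221), and Plod2, the hydroxylase of collagen telopeptide lysines that lysyl oxidases act on, at 5.84 ± 0.760 against 10.4 ± 1.51 (log2 -0.78, adjusted p = 0.00355). Against 12 h, 4 of these 12 were higher and 1 lower, Plod1, P4ha2, Tgm2 and Lepre1 on one side and Plod2 on the other. Of all tested genes, 5.83% were called higher and 4.16% lower at 7 d than in controls. Against 12 h these shares were 11.8% and 3.88%. In lists of 8 and 12 genes, 1 call is not read as a result about the list.

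Among 7 tested ADAM partners and shed proteins, 1 was higher at 7 d: Hbegf, the precursor of heparin-binding EGF that Adam17 sheds, at 15.8 ± 2.61 against 9.32 ± 0.355 RPKM (log2 0.72, adjusted p = 0.0105). In that comparison with controls, 5.83% of all tested genes were called higher. Of 13 tested matrix substrates, 0 passed at 12 h, 72 h or 7 d against controls, and 1 was lower at 24 h. An unadjusted p under 0.05 in limma was reached by 3, 4 and 2 of the 13 at 12 h, 72 h and 7 d, and by 12.3%, 13.7% and 23.9% of all tested genes. The gene lower at 24 h was Col3a1, a fibrillar collagen gene, at 44.9 ± 3.87 against 91.9 ± 10.5 RPKM (log2 -1.02, adjusted p = 0.0337). At 24 h, 0.0568% of all tested genes were called lower than in controls.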

How the data were processed

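Poly(A)+ RNA of 15 mouse ventricles was sequenced in pairs of strand-specific reads. The authors deposited 1 table of RPKM values: the reads on the constitutive coding part of each RefSeq gene, divided by its length and by the uniquely mapped reads outside ribosomal and mitochondrial sequence. Bowtie, TopHat and mm9 are named in the submitters' processing notes, without versions. Values have 2 decimals and 10.8% are 0. The table gives no read totals, so depth is unknown and precision rests on the spread between hearts. All libraries differed from each other.

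Groups came from the labels. Genes averaging at least 1 RPKM were tested on log2(RPKM + 0.5) with limma 3.58.1 (R 4.3.3; moderated test with trend, 5 group means in 1 fit of 15 hearts, Benjamini-Hochberg over 10557 genes, adjusted p under 0.05). Log2 changes are on that scale and understate changes of low genes; errors of changes are limma's SE. On simulated data for 7 d against control (10557 genes), 42% of 1.5-fold, 86% of 2-fold and 98% of 4-fold changes were called. Of the calls, 4.14% were false. Genes were simulated as independent, with no effect of title code or Y-linked mRNA, so these rates need not hold for the real hearts.

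Every gene above the filter was named; values by heart were given for called genes, TIMPs, lysyl oxidases above the filter, the 3 highest of Mmp, Adam and Adamts, and the lowest p of each family at 7 d. Called genes of the pathway lists were named. Members and lists were chosen with earlier results of these data known. Positions are from GENCODE on mm9; RefSeq promoter windows matched 43 of the 71 genes. Alternatives were other pseudocounts, filters, scalings, covariates, weights and samples.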

Additional observations from a re-analysis of the deposited data

Results flagged for a closer look

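In 12 cases a gene's effect differed between 2 time points by limma's test of the difference itself (adjusted p under 0.05), and the induced groups of such a pair share no control. Between 12 h and 24 h, Mmp14 differed by -1.25 and Timp3 by 1.29 on the log2 scale. That contrast was added after the values had been seen, and the Timp3 call was lost with Y-linked mRNA as covariate. Between 12 h and 7 d, the differences were 0.44 for Adam10, 0.56 for Adam17, 0.82 for Adam19, -0.74 for Adam1a, 0.73 for Loxl2 and 0.42 for Timp1. Between 72 h and 7 d, they were 0.92 for Adam19, -0.62 for Adam1a, 0.57 for Timp1 and -0.78 for Timp3. The 12 h hearts held no Y-linked mRNA and the 7 d hearts all did, and title codes B and C occurred on 1 side each of that pair, so neither can be told apart from time over all hearts. Within code A, with 1 heart on each side, title code was shared but Y-linked mRNA still differed and cannot be told apart from time. For each of the 6 genes the 12 h and 7 d hearts did not overlap, so the direction in this pair was fixed beforehand and is no check. The 7 d to 12 h ratios of the pair were 1.09 for Adam10, 1.21 for Adam17 and 1.20 for Adam19. They were 0.602 for Adam1a, 1.25 for Loxl2 and 1.55 for Timp1.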

How the results depend on the processing

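With 3 hearts a group and depth unknown, small differences in low genes were not detectable. Of 279 alternative values for the 16 called changes, 181 kept direction and call, 98 kept direction and lost the call, and 0 reversed. Many could not reverse: other filters and only the compared groups leave the log2 change as it was. Leaving out a heart could not reverse one either, since the hearts of the compared groups did not overlap in any of the 16. These changes were also taken because they were called. The fall of Timp3 at 7 d against controls was called in all 18 alternatives (log2 -1.37 to -0.89), and the changes of Adam19 and Adam1a in 16 of 17 each, lost with title code and Y-linked mRNA together (Adam19 0.55, adjusted p = 0.363). Adam17 kept its call in 7 of 18 and Adamts1 in 8 of 18.

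The count of genes of these families called moved as follows, with all 71 tested with no filter, 20 with a minimum of 5 RPKM and 31 or 32 otherwise, in the order 12 h, 24 h, 72 h and 7 d against controls, then 7 d against 12 h and against 72 h, from 1, 0, 0, 5, 6 and 4: 5, 4, 3, 6, 5 and 10 with title code as covariate; 0, 0, 0, 3, 1 and 5 with Y-linked mRNA; 4, 4, 0, 1, 0 and 10 with both; 6, 3, 20, 13, 19 and 23 with library quality weights; 2, 0, 0, 8, 5 and 4 with median-ratio scaling; 2, 0, 0, 7, 6 and 4 with upper-quartile scaling; 2, 0, 0, 7, 7 and 4 with quantile normalization; 1, 0, 0, 9, 9 and 7 with no filter (Adamts4 at 12 h, and 5 of the 9 at 7 d are genes under the filter); 0, 0, 0, 3, 2 and 1 with a minimum of 5 RPKM; 0, 0, 0, 7, 2 and 0 with only the compared groups; 0, 0, 0, 5, 6 and 4 with a pseudocount of 0.1; 1, 0, 0, 5, 6 and 5 with 1. Leaving out 1 heart gave 0 to 1, 0 to 0, 0 to 2, 3 to 4, 3 to 6 and 0 to 7. Without 72 h heart 1, or 7 d heart 2 or 3, 0 genes differed between 7 d and 72 h; without 72 h heart 3, 7 did and 2 were lower at 72 h than in controls. Timp3 at 12 h was called lower under each of the 3 rescalings. Over all tested genes the calls moved too. In the same order they were 41, 10, 63, 1055, 1651 and 266 in the main fit. With title code they were 772, 326, 495, 1336, 1361 and 706, and with Y-linked mRNA 19, 1, 6, 490, 305 and 263. With both they were 453, 187, 1, 236, 100 and 718. With library quality weights they were 1355, 218, 3955, 3317, 5075 and 5005. With no filter they were 59, 15, 48, 1177, 1855 and 296, and with a minimum of 5 RPKM 23, 6, 40, 824, 1327 and 221. Median-ratio scaling gave 54, 10, 96, 1262, 1528 and 330. Upper-quartile scaling gave 53, 11, 94, 1280, 1552 and 352, and quantile normalization 58, 11, 84, 1294, 1528 and 343. Only the compared groups gave 12, 47, 1, 1176, 761 and 59. The cause of these shifts was not tested.

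Median-ratio scaling moved the median of all genes from 0.13 to 0.02 at 7 d against 12 h and from 0.11 to 0.00 at 7 d against 72 h. The split of all genes called higher and lower went from 1241 and 410 to 783 and 745 in the former and from 184 and 82 to 143 and 187 in the latter, and the split of the 32 genes at 7 d against 12 h from 5 and 1 to 2 and 3. Leave-one-out ratios of Celf2 to control were 9.02 to 14.5 at 12 h, 14.1 to 17.2 at 24 h, 21.9 to 25.3 at 72 h and 31.0 to 36.3 at 7 d. No paired analysis was possible because the labels give no replicate numbers.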

Other observations

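Several genes under the filter, named here after their values were seen, differed between groups when all 71 were tested with no filter on low values; a pseudocount of 0.5 and values below 1 RPKM make these log2 changes small against the ratio of levels. Adamts4, an aggrecanase, was 0.09, 0.05 and 0.11 RPKM in controls, 0.44, 0.38 and 0.32 at 12 h, 0.04, 0.06 and 0.08 at 24 h, 0.05, 0.09 and 0.09 at 72 h, and 0.38, 0.61 and 0.74 at 7 d. Its 12 h and 7 d hearts stood above all the others, with log2 changes against controls of 0.59 at 12 h (limma adjusted p = 0.0279) and 0.87 at 7 d (adjusted p = 0.000293). Mmp14 had its highest group means, and Timp3 its lowest, in those same groups. For Mmp14, heart 1 at 7 d (5.58 RPKM) lay below heart 3 at 72 h (5.67).

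Loxl4, a lysyl oxidase, was 0.39, 0.40 and 0.42 RPKM in controls and 0.69, 1.12 and 1.01 at 7 d (log2 0.66, adjusted p = 0.0105). Adam22, a neuronal ADAM without protease activity, was 0.44, 0.39 and 0.37 RPKM in controls and 2.02, 1.71 and 1.16 at 7 d (log2 1.22, adjusted p = 0.009). Adamts17 was 0.55, 0.68 and 0.67 RPKM in controls and 0.78, 1.04 and 1.21 at 7 d (log2 0.41, adjusted p = 0.0323), and Mmp16, a membrane-type MMP, 0.43, 0.40 and 0.21 against 0.17, 0.15 and 0.18 (log2 -0.33, adjusted p = 0.0323). These 5 genes were picked because they were called. Among all genes tested with no filter, 20 were called higher and 39 lower than controls at 12 h. At 7 d these counts were 706 and 471.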
